A study of Homo sapiens with 12 samples.

Results

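Acute promyelocytic leukaemia cells of the NB4 line were compared after 96 hours of 0.5 uM all-trans retinoic acid (ATRA), with the noncoding RNA HOTAIRM1 knocked down or left at its own level. The comparison took 6 of the 12 arrays of the study. The 3 knockdown arrays were 2 of cells carrying shRNA1 and 1 of cells carrying shRNA2, a different construct against the same RNA. The 3 control arrays were 1 of wild type NB4 cells and 2 of cells carrying a scrambled shRNA. Expression was measured as log2 values on Affymetrix ST arrays, which read total RNA with several probes (a probe set) per gene. All probe sets annotated to 1 gene were eligible, and each gene was represented by its brightest probe set on average, which gave 18404 genes. The other 6 arrays held the same 4 kinds of cells without ATRA, in the same numbers, and served to measure the difference that was already there before treatment.

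All lines came from NB4, so every group carries the leukaemic fusion of that line. The shRNAs were delivered on the lentiviral pLKO.3G backbone, carriers were sorted for green fluorescent protein, and the lines grew out of single cells. The wild type cells are not described as carrying a vector or as cloned, so the control group mixes cells of different history. With lines grown from single cells, differences between clones cannot be told apart from effects of the knockdown. The duplicates are called biological in the labels, with no word on separate clones or cultures. Where they were not separate, the p-values below reflect only the spread among these samples, which may be technical. No probe set was listed under the name HOTAIRM1, so the extent of the knockdown was not analysed here. HOXA2 was the only measured gene of the HOXA list, and its difference after ATRA was 0.05 ± 0.10 (SE; adjusted p = 0.776).

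NB4 cells stop at the promyelocyte stage because the PML-RARA fusion represses retinoic acid target genes. ATRA at pharmacological dose releases that block. The cells then slow and leave the cell cycle while they gain granulocyte features such as the respiratory burst oxidase and integrins. HOTAIRM1 is transcribed from the HOXA cluster and is induced during myeloid maturation, and the design asks how gene expression in ATRA-treated cells differs when it is reduced. Much of what follows concerns DNA replication genes. Cells license replication origins in G1 by loading the MCM helicase with ORC, CDC6 and CDT1, fire them in S phase with CDC45 and the GINS complex, and transcribe most of these genes through E2F factors.

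The 6 arrays correlated at r of 0.980 to 0.994 across genes, and no pair of arrays held more than 3 identical values, so none was a copy of another. The first principal component of the 6 arrays carried 39% of their variance and separated the arms, with control scores of -22.7 to -6.35 and knockdown scores of 10.8 to 19.1. The arms also differed in the spread of values over genes. The lower quartile ran from 6.99 to 7.03 on the control arrays and from 6.88 to 6.93 on the knockdown arrays. The upper quartile ran from 9.24 to 9.31 and from 9.38 to 9.43. The myeloid genes MPO, the promyelocyte myeloperoxidase (12.67 to 13.75), and CYBB, the oxidase subunit (13.54 to 13.74), were bright, while CD14 read 7.15 to 8.13. Among lymphoid and erythroid markers, CD3E (6.28 to 6.75), the B cell gene MS4A1 (5.54 to 5.81) and the globin gene HBB (6.59 to 6.92) were dim on every ATRA array. Others were brighter, such as LCK (7.42 to 7.91) and ALAS2 (7.31 to 7.89). In the lymphoid list 13 of 17 genes averaged at or above 6.709, the upper quartile of olfactory receptor genes. In the erythroid and megakaryocyte list 8 of 12 did. The files give no detection call, so dim is not read as absent.

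After ATRA, 10 genes were higher and 1 was lower in knockdown than in control cells (limma, Benjamini-Hochberg adjusted p under 0.05). These are 0.0543% and 0.00543% of the 18404 genes tested. The higher genes are DNA2, EXO1, MMS22L, FIGNL1, ORC6, AFG2A, AASDH, ST7, CPSF6 and STK39, of which the first 5 act in DNA replication or repair. The lower gene is MAGEA8. Their folds lie between 1.43 and 1.73, and for each of the 11 genes the 3 knockdown arrays lie on 1 side of the 3 control arrays. Many more genes came close. At an unadjusted p under 0.05 there were 5171 genes, and 1097 higher and 1364 lower genes had an adjusted p under 0.1. The next gene after the 11 had an adjusted p of 0.0506. The calls lie close to the threshold and move with the processing. With the 12 arrays quantile-normalized, 138 genes were higher and 142 lower, and with each array centred on its median, 249 were higher and 108 lower. All 11 genes were called under both scalings. With the 6 ATRA arrays fitted alone, 0 genes were called in either direction.

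Single arrays moved the count as much. It was 0 higher and 0 lower without untreated wild type, without untreated shRNA1 replicate 1 or replicate 2, without ATRA scrambled replicate 2, without ATRA shRNA1 replicate 1, or without ATRA shRNA2. It was 3 higher and 0 lower without ATRA wild type, and 1 higher and 0 lower without ATRA shRNA1 replicate 2. It was 420 higher and 281 lower without untreated scrambled replicate 2, 66 higher and 12 lower without ATRA scrambled replicate 1, and 31 higher and 12 lower without untreated shRNA2. Each of the 11 genes was called under 11 or 12 of 24 alternatives, with the same sign in all of them. For these reasons the gene groups below are described by how the arrays fall and by the size of the difference, beside the same values over all genes. Over all genes, the 3 knockdown arrays lay above the 3 control arrays for 2639 genes (14.3%) and below them for 3816 genes (20.7%), and the median difference was -0.03.

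**Figure D1:**
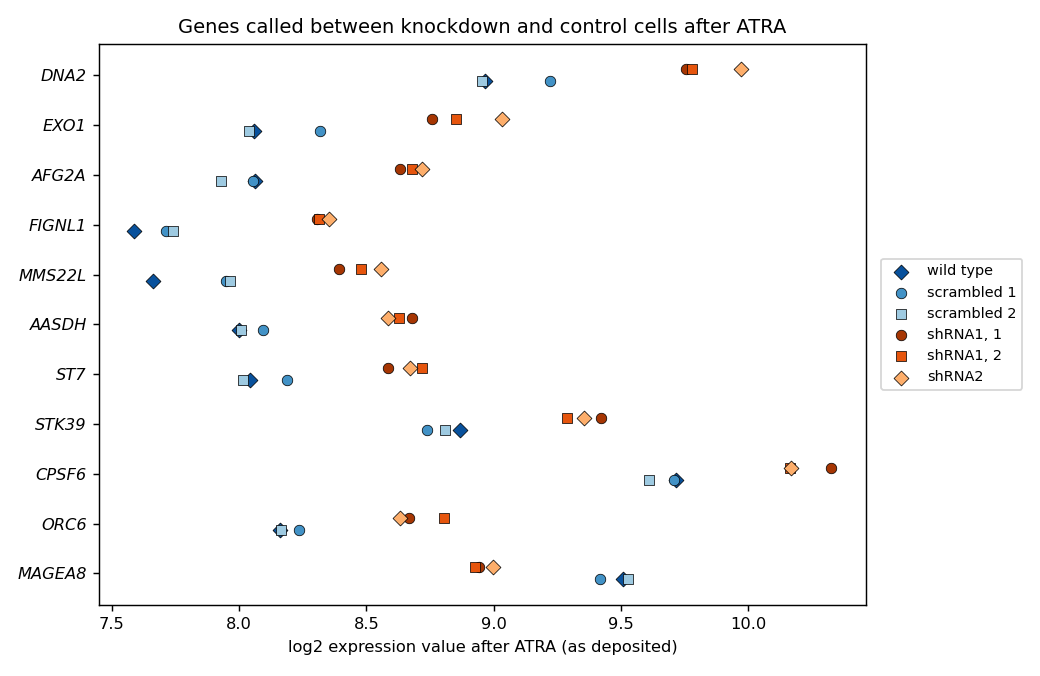
Log2 expression values after ATRA (x axis) of the 11 genes that passed the test (y axis), 1 point per array, with control arrays in blue and knockdown arrays in orange. The knockdown points lie to the right of the control points for the 10 higher genes and to the left of them for MAGEA8.

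The largest fold among the called genes was that of DNA2, the helicase and nuclease that trims Okazaki fragments and resects broken ends. Its values were 8.97 in wild type, 9.22 and 8.95 in scrambled, 9.76 and 9.78 in shRNA1 and 9.97 in shRNA2 cells. All knockdown arrays were above all control arrays, by 0.79 ± 0.11 on the log2 scale (SE; 1.73-fold, adjusted p = 0.0362). EXO1, an exonuclease of mismatch repair and end resection, read 8.06 in wild type, 8.32 and 8.04 in scrambled, 8.76 and 8.85 in shRNA1 and 9.03 in shRNA2 cells. It was higher by 0.74 ± 0.11 (1.67-fold, adjusted p = 0.0420). In both genes shRNA2 was the highest array and scrambled replicate 1 the highest control. MMS22L, which helps load recombinase at stalled forks, read 7.66 in wild type, 7.95 and 7.96 in scrambled, 8.39 and 8.48 in shRNA1 and 8.56 in shRNA2 cells. Its difference was 0.62 ± 0.09 (1.54-fold, adjusted p = 0.0362), and wild type was the lowest array.

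FIGNL1, an ATPase that acts on recombinase filaments, read 7.59 in wild type, 7.71 and 7.74 in scrambled, 8.31 in both shRNA1 arrays and 8.35 in shRNA2 cells. The knockdown arrays lay within a narrow band, 0.64 ± 0.08 above the control mean (1.56-fold, adjusted p = 0.0362). ORC6, a subunit of the origin recognition complex, read 8.16 in wild type, 8.24 and 8.17 in scrambled, 8.67 and 8.80 in shRNA1 and 8.63 in shRNA2 cells. The difference was 0.51 ± 0.07 (1.43-fold, adjusted p = 0.0362), again with no overlap between the groups.

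The other 5 higher genes have other roles. AFG2A, an ATPase of ribosome assembly, read 8.06 in wild type, 8.06 and 7.93 in scrambled, 8.63 and 8.68 in shRNA1 and 8.72 in shRNA2 cells (difference 0.66 ± 0.09, adjusted p = 0.0362). It was also the called gene with the largest difference before ATRA, at 0.32, where the test did not separate the arms. AASDH, of the acyl-CoA synthetase family, had the smallest adjusted p of all genes, 0.0336. It read 8.0 in wild type, 8.10 and 8.01 in scrambled, 8.68 and 8.63 in shRNA1 and 8.58 in shRNA2 cells, a difference of 0.60 ± 0.07. CPSF6, a subunit of the cleavage factor that sets messenger RNA 3' ends, read 9.71 in wild type, 9.71 and 9.61 in scrambled, 10.32 and 10.16 in shRNA1 and 10.17 in shRNA2 cells (difference 0.54 ± 0.07, adjusted p = 0.0362). ST7 read 8.02 to 8.19 on the control arrays and 8.59 to 8.72 on the knockdown arrays (difference 0.57 ± 0.08, adjusted p = 0.0362). STK39, a kinase that controls chloride cotransporters, read 8.74 to 8.87 and 9.29 to 9.42 (difference 0.55 ± 0.08, adjusted p = 0.0373). None of these 5 genes had overlapping groups.

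MAGEA8, a cancer-testis antigen gene, was lower. It read 9.51 in wild type, 9.42 and 9.53 in scrambled, 8.94 and 8.93 in shRNA1 and 9.0 in shRNA2 cells. The difference was -0.53 ± 0.07 (1.44-fold lower, adjusted p = 0.0362). MAGE family genes are related in sequence, and whether related transcripts add signal to this probe set was not tested.

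The difference can be split by construct into shRNA1 against scrambled (2 arrays each) and shRNA2 against wild type (1 array each, so the value has no test). For the 11 genes both parts have the same sign by construction, since their groups do not overlap, so only the sizes are given. For DNA2 the differences were 0.68 with shRNA1 and 1.0 with shRNA2, for EXO1 0.63 and 0.97, for MMS22L 0.48 and 0.90, and for FIGNL1 0.58 and 0.76. For AASDH they were 0.60 and 0.59, for ORC6 0.53 and 0.47, and for MAGEA8 -0.54 and -0.51. For CPSF6 they were 0.58 and 0.45, and for STK39 0.58 and 0.49. The gap between constructs was not tested. Since the constructs were read against different controls, construct and control cannot be told apart. The shRNA1 contrast alone called 0 genes in either direction with limma (3133 at an unadjusted p under 0.05, smallest adjusted p 0.0661). For the 11 genes its adjusted p was 0.217.

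The same cells were then compared before ATRA. Before ATRA, limma called 0 genes in either direction between knockdown and control cells, with 727 genes at an unadjusted p under 0.05 and a smallest adjusted p of 0.999. The test of whether the knockdown difference was larger or smaller after ATRA than before also called 0 genes. It had 2815 genes at an unadjusted p under 0.05 and a smallest adjusted p of 0.271. The 5 smallest p-values for a larger difference after ATRA belonged to DNA2 (change of the difference 0.85), AASDH (0.57), STK39 (0.60), EMC3-AS1 (0.78) and TUBGCP5 (0.72). For a smaller difference they belonged to MAGEA8 (-0.63), OLIG3 (-0.57), P4HA2 (-0.56), MYT1 (-0.53) and the olfactory receptor gene OR2T10 (-0.55). None of these 10 passed the adjustment.

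The untreated arrays show what the called genes did with ATRA. All 10 higher genes fell with ATRA in control cells, and MAGEA8 rose, though these contrasts use the same treated arrays as the knockdown difference. DNA2 fell by 1.07 in control cells (adjusted p = 8.8e-05), and its change was -0.22 in knockdown cells (adjusted p = 0.186). AASDH fell by 0.58 in control cells, with a change of -0.01 in knockdown cells (adjusted p = 0.953). EXO1 fell in both, by 1.58 in control and by 0.93 in knockdown cells, and ORC6 fell by 0.94 and by 0.47. For EXO1 and ORC6 the level in treated knockdown cells lay between the untreated level and the treated control level.

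Replication and repair genes leaned to 1 side as a group. The lists for origin licensing, the replication fork, deoxynucleotide supply and homologous recombination with Fanconi repair hold 88 measured genes of 93 listed. All 3 knockdown arrays lay above all 3 control arrays for 73 of the 88 (83.0%, beside 14.3% of all genes) and below them for 0. The median difference was 0.46, beside -0.03 over all genes. Only 3 of the 88 passed the test (ORC6, DNA2 and EXO1), 64 had an adjusted p under 0.1, and 84 had a value above 0. Before ATRA the median of these genes was 0.02. Array by array, the median deviation from each gene's mean was -0.35 in wild type, -0.09 and -0.25 in scrambled, 0.16 and 0.26 in shRNA1 and 0.27 in shRNA2 cells, so the groups did not overlap and wild type was the lowest. In bulk RNA, more cells in S phase and more of these transcripts per cell cannot be told apart.

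The median had the same sign in both constructs' contrasts and under the alternatives run, which reuse the same arrays. The median over the 88 genes was 0.38 for shRNA1 against scrambled, with 83 genes above 0, and 0.62 for shRNA2 against wild type, with 87 above 0. Over all genes 46.6% and 44.2% were above 0. For the 73 genes whose groups do not overlap, both contrasts are above 0 by construction. The signs of the 2 contrasts therefore add no separate support, and only the sizes are new. Across 25 settings, the reported one included, the median ran from 0.38 to 0.53, while the number of the 88 genes called higher ran from 0 to 44 and the number called lower was 0 throughout. With quantile normalization, which gives every array 1 distribution of values, the median was 0.38 and 14 genes were called. That value is measured with the arms' difference in spread over genes, given above, removed.

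**Figure D2:**
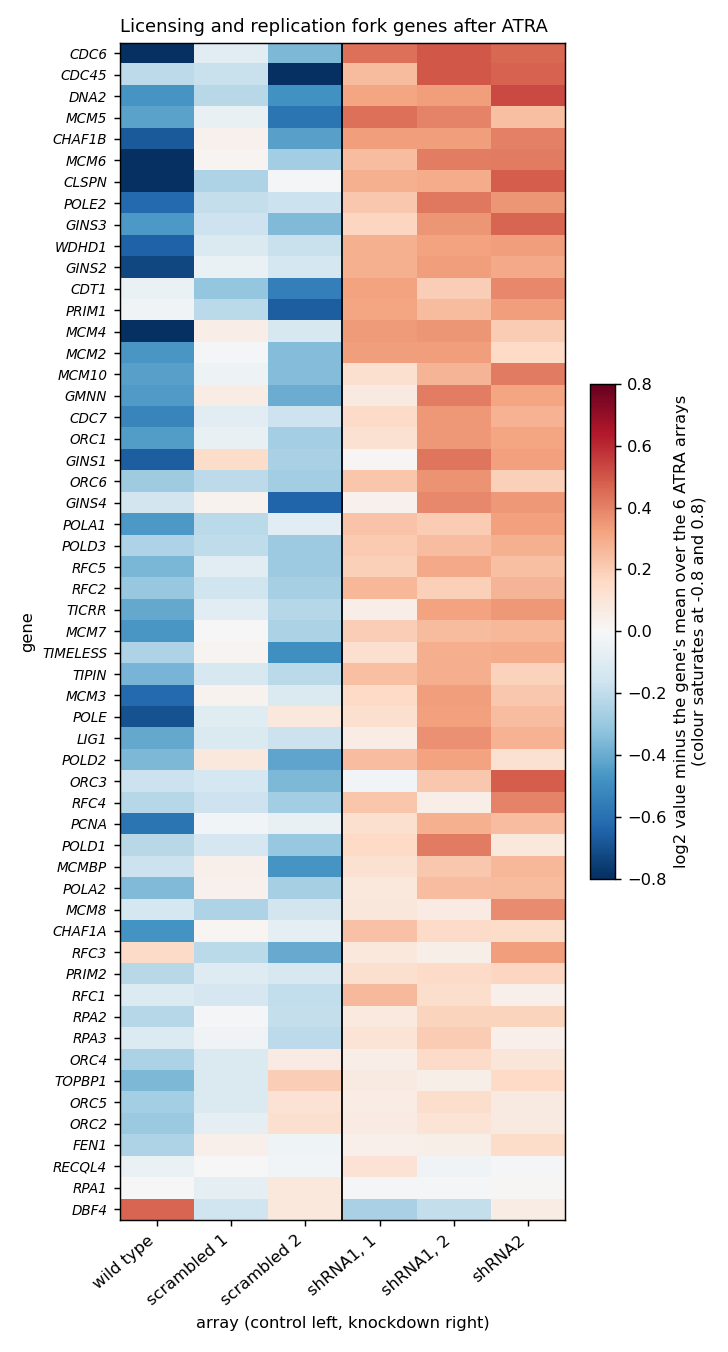
Origin licensing and replication fork genes (rows, sorted by the knockdown difference) on the 6 ATRA arrays (columns, controls left of the line), coloured by the log2 value minus the gene's mean over the 6 arrays. Most rows turn from blue to red at the line, the wild type column holds the darkest blues, and DBF4 in the last row runs the other way.

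Origin licensing had the largest median difference of the lists, 0.52, and all 18 genes had a value above 0. On all knockdown arrays 15 of 18 lay above (83.3%, beside 14.3% of all genes). CDC6, which loads the helicase, read 8.33 in wild type, 9.20 and 8.92 in scrambled, 9.72 and 9.78 in shRNA1 and 9.74 in shRNA2 cells. Its difference of 0.93 ± 0.18 was the largest of the list and missed the threshold (adjusted p = 0.0539), beside a control SD of 0.44 and a knockdown SD of 0.03. CDT1, its partner in loading, read 9.26 in wild type, 9.01 and 8.77 in scrambled, 9.64 and 9.52 in shRNA1 and 9.71 in shRNA2 cells (0.61 ± 0.12, adjusted p = 0.0539). The helicase subunits had values of a similar size. MCM2 had a difference of 0.55 (adjusted p = 0.0539), MCM3 0.47 (0.0742), MCM4 0.60 (0.0752), MCM5 0.72 (0.0539), MCM6 0.71 (0.0541) and MCM7 0.48 (0.0596). GMNN, the inhibitor of CDT1, had 0.53 (adjusted p = 0.063).

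At the replication fork, 30 of 37 genes lay above on all knockdown arrays (81.1%, beside 14.3% of all genes). The median difference was 0.48. GINS3, a subunit of the helicase activator, read 8.04 in wild type, 8.34 and 8.15 in scrambled, 8.68 and 8.86 in shRNA1 and 8.97 in shRNA2 cells (0.66 ± 0.11, adjusted p = 0.0506). RFC2, a subunit of the clamp loader, read 10.46 in wild type, 10.61 and 10.50 in scrambled, 11.03 and 10.96 in shRNA1 and 11.04 in shRNA2 cells (0.49 ± 0.08, adjusted p = 0.0506). Groups did not overlap in either gene. TIPIN, which holds the fork together with TIMELESS, had 0.48 ± 0.09 (adjusted p = 0.0506), CDC45 0.81 ± 0.17 (0.0539) and the clamp PCNA 0.44 ± 0.13 (0.0732). The values nearest 0 were those of the single-strand binding subunit RPA1 (-0.01) and the helicase RECQL4 (0.05). DBF4, the activator of the CDC7 kinase, had the most negative value of the list (-0.26 ± 0.20, adjusted p = 0.407), with wild type at 6.90, the highest array.

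Repair genes of the homologous recombination and Fanconi list were the most uniform of the 4 lists. Of 22 genes 21 lay above on all knockdown arrays (95.5%, beside 14.3% of all genes). Their median was 0.46, against 0.42 for shRNA1 and 0.62 for shRNA2. RAD54L, a motor of strand exchange, read 8.04 in wild type, 8.36 and 8.18 in scrambled, 8.66 and 8.85 in shRNA1 and 8.88 in shRNA2 cells (0.60 ± 0.10, adjusted p = 0.0506). FANCC, a subunit of the Fanconi core complex, read 8.44 in wild type, 8.64 and 8.44 in scrambled, 8.94 and 8.89 in shRNA1 and 9.05 in shRNA2 cells (0.46 ± 0.09, adjusted p = 0.0532). RAD51AP1, which assists the recombinase, had 0.54 ± 0.11 (adjusted p = 0.0539). Deoxynucleotide supply was less uniform, with 7 of 11 genes above on all knockdown arrays (63.6%) and a median of 0.33. DUT, which removes dUTP, had 0.55 ± 0.14 (adjusted p = 0.0578) and CTPS1, which makes CTP, 0.67 ± 0.18 (0.0654). The reductase subunit RRM2 had 0.30 ± 0.20 with overlapping arrays (0.02 for shRNA1, 0.86 for shRNA2). SAMHD1, which breaks deoxynucleotides down, had -0.13 ± 0.30.

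Promoters of these genes were searched for letters that E2F factors bind. RefSeq (GRCh38.p14) windows of 300 bases, 250 before to 50 after the start, were read on both strands for TTCCCGC, for TTCGCGC, for TTGCCGC and for TTGGCGC. Of 103 windows of 77 of the 88 genes, 60.2% held a string, beside 16.3% of 20098 windows of 14228 measured genes. The shares were 70.4% for the recombination list, 64.1% for the fork, 57.1% for licensing and 37.5% for deoxynucleotide supply. Windows of genes with all knockdown arrays above held a string in 24.0%, and those with all below in 12%. Of the 9 genes called higher that have a window, 3 (EXO1, MMS22L and ST7) held a string in at least 1 window. This stands beside 2986 of the 14228 measured genes. MAGEA8 held none. The string is a description of letters, not a site shown to be bound. The median GC content of the windows was 64.7% for the replication and repair genes and 62.7% for all genes. It was 64.3% for genes with all knockdown arrays above and 61.7% for those with all below. The first 250 bases of 4 windows follow, 5' to 3' on the gene's strand, chosen after the values were seen. They come from list members with small p-values that held a string in these bases, and members without one were passed over. RAD54L, TIPIN and FANCC have 2 windows each, and only a window with the string is shown. The place of the string in these 4 is thus no measure for other genes. Capitals mark the string. RAD54L is chr1:46247438-46247687 (+), TIPIN chr15:66356686-66356935 (-), FANCC chr9:95317255-95317504 (-) and RAD51AP1 chr12:4538640-4538889 (+).
RAD54L: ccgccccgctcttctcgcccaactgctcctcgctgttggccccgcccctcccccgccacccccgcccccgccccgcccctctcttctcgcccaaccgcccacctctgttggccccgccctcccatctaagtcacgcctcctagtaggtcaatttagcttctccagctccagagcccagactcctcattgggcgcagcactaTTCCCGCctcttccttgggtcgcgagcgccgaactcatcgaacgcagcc
TIPIN: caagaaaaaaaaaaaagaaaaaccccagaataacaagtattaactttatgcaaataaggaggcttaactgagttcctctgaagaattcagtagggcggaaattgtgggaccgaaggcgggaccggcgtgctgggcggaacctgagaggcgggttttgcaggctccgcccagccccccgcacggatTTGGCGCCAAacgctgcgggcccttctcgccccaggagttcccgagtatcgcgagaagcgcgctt
FANCC: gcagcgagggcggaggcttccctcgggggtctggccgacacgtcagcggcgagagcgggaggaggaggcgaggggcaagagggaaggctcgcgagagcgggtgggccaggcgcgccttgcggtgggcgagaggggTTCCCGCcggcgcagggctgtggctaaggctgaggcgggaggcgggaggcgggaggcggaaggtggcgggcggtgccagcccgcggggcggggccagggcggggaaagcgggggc
RAD51AP1: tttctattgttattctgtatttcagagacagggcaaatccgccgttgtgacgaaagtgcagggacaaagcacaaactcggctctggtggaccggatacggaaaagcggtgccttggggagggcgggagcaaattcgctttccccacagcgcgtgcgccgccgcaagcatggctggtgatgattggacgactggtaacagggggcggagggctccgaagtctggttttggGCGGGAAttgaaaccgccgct
The first capital lies 49 bases before the start in RAD54L, 65 in TIPIN, 115 in FANCC and 21 in RAD51AP1. In TIPIN a second string on the other strand begins 62 bases before the start and overlaps the first.

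Checkpoint, chromatin and E2F genes also had positive medians. In the replication checkpoint list 10 of 13 genes lay above on all knockdown arrays (76.9%, beside 14.3% of all genes), with a median of 0.31. The kinases CHEK1 (0.49 ± 0.10) and CHEK2 (0.51 ± 0.10) both had an adjusted p of 0.0539, and CHEK2 already had 0.31 before ATRA. ATM, which senses breaks, had 0.17 ± 0.11 (adjusted p = 0.345). Among genes of chromatin and DNA methylation at replication, 11 of 19 lay above (57.9%, median 0.35). The remodeller HELLS read 8.27 in wild type, 8.70 and 8.54 in scrambled, 9.25 and 9.16 in shRNA1 and 9.30 in shRNA2 cells (0.74 ± 0.12, adjusted p = 0.0506). Its partner UHRF1, which brings the methyltransferase to new DNA, had 0.69 ± 0.14 (0.0539), and DNMT1 itself 0.34 ± 0.08 (0.0558). In the E2F family list 9 of 16 lay above (56.2%, median 0.22). Its smallest p-values were those of the repressor E2F8 (0.56 ± 0.11) and the activator E2F1 (0.49 ± 0.11), both with an adjusted p of 0.0539.

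For mitotic genes the arrays of the arms overlapped. Of 42 spindle and mitosis genes 41 had a value above 0, with a median of 0.29, and the 3 knockdown arrays lay above all controls for 10 (23.8%, beside 14.3% of all genes) and below them for 0. The median deviation was 0.03 in wild type, -0.16 and -0.25 in scrambled, -0.06 and 0.08 in shRNA1 and 0.36 in shRNA2 cells, so wild type overlapped the shRNA1 arrays. The kinetochore gene CENPK had 0.55 ± 0.10 (adjusted p = 0.0506) and the mitotic factor FOXM1 0.56 ± 0.13 (0.0555). The kinases AURKA and PLK1 both had 0.00, with wild type and shRNA2 as their highest arrays. The promoters of this list held E2F strings in 30.4% of windows and the string TTTGAA, the core of the CHR element of late cell cycle genes, in 47.8%, beside 12.3% of all windows and 8.74% for the 88 replication and repair genes.

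G1 regulators had values of both signs. Of 18 genes, 7 lay above (38.9%, beside 14.3% of all genes) and 3 below (16.7%, beside 20.7%) on all knockdown arrays. CCNE2, the cyclin of S phase entry, had 0.65 ± 0.18 (adjusted p = 0.0689) and its kinase CDK2 0.39 ± 0.09 (0.0539). CDKN2B, the inhibitor of CDK4 and CDK6, read 7.38 in wild type, 7.18 and 7.15 in scrambled, 6.98 and 6.69 in shRNA1 and 6.94 in shRNA2 cells (-0.37 ± 0.11, adjusted p = 0.0752). No member of the list passed the test.

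**Figure D3:**
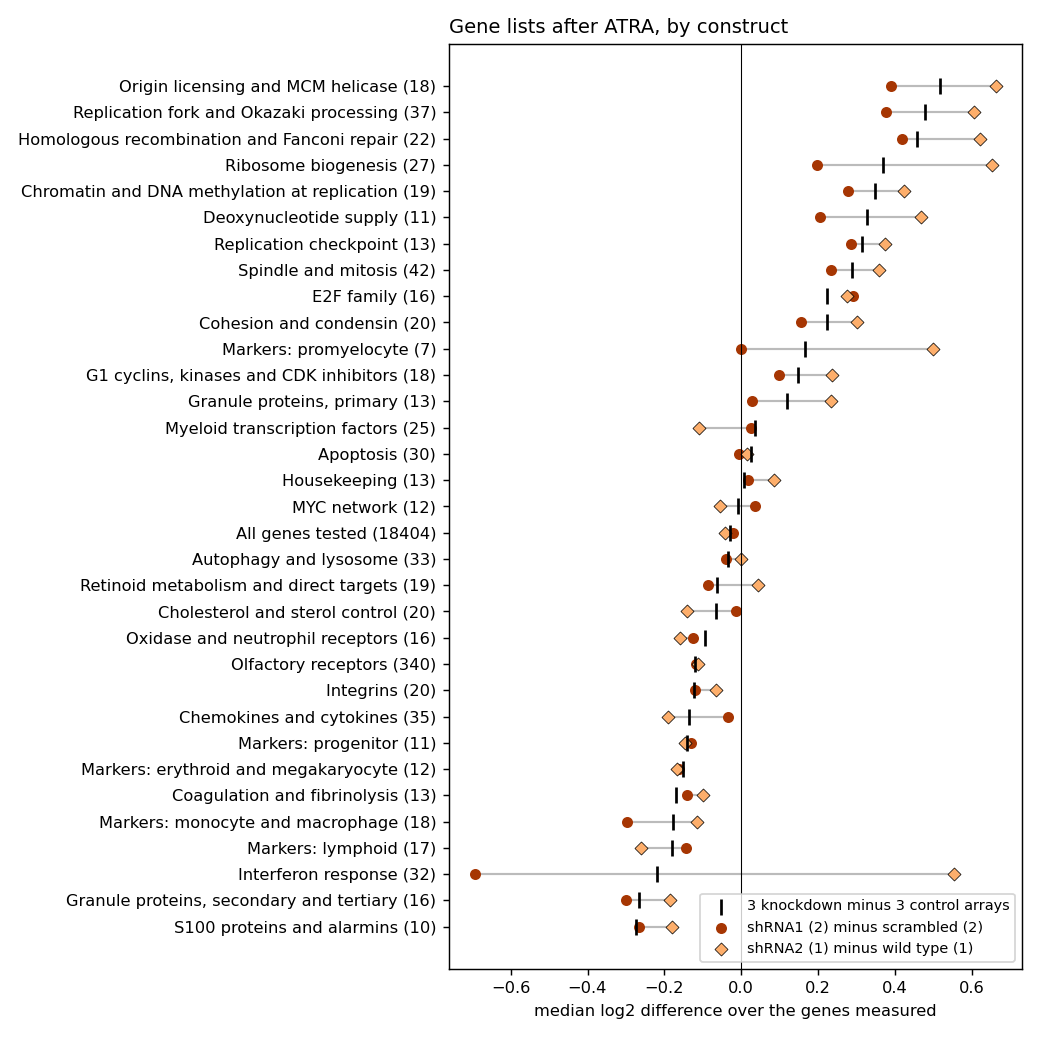
Median log2 difference after ATRA over the measured genes of each list (list size in brackets), for the 3 knockdown against the 3 control arrays (black bars), shRNA1 against scrambled (brown circles) and shRNA2 against wild type (orange diamonds). Replication and repair lists lie to the right of 0 for both constructs, and the interferon list lies at -0.69 for shRNA1 and 0.55 for shRNA2.

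Ribosome biogenesis had a median of 0.37, with 26 of 27 genes above 0. On all knockdown arrays 12 lay above (44.4%, beside 14.3% of all genes). The median differed between the constructs' contrasts. It was 0.20 for shRNA1 against scrambled and 0.65 for shRNA2 against wild type, and the wild type array had a median deviation of -0.51 beside -0.02 and 0.02 in scrambled cells. POLR1E, a subunit of RNA polymerase I, had 0.65 with shRNA1 and 0.78 with shRNA2 ( 0.69 ± 0.14 in all, adjusted p = 0.0539). NOP58, a core protein of snoRNA particles, had 0.20 and 0.79 (0.40 ± 0.12, adjusted p = 0.079). MYC, which drives this programme, read 9.79 in wild type and 10.41 to 10.93 elsewhere (0.32 ± 0.23, adjusted p = 0.362), and the 12 genes of the MYC network had a median of -0.01.

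Genes of the late granules showed mostly small negative values. Secondary and tertiary granule genes, which granulocytes switch on late, had a median of -0.27 with 0 of 16 above 0. On all knockdown arrays 5 lay below (31.2%, beside 20.7% of all genes and 27.1% of the olfactory receptor genes described below). Only 4 of the 16 rose with ATRA in control cells at a limma adjusted p under 0.05. LCN2, lipocalin, read 7.54 in wild type, 7.60 and 7.62 in scrambled, 7.30 and 7.35 in shRNA1 and 7.15 in shRNA2 cells (-0.32 ± 0.08, adjusted p = 0.0607). The antimicrobial peptide gene CAMP read 8.14 to 8.54 on control and 7.92 to 7.99 on knockdown arrays (-0.33 ± 0.11, adjusted p = 0.092). HP, haptoglobin, had the most negative value of all genes, -1.69 ± 0.59 (adjusted p = 0.104). It read 7.45 in wild type, 9.22 and 9.82 in scrambled, 6.50 and 7.49 in shRNA1 and 7.42 in shRNA2 cells, with a value of -2.52 for shRNA1 against scrambled and -0.03 for shRNA2 against wild type. The groups overlap, and the scrambled arrays are the highest. HP shares sequence with HPR, and signal from the other gene cannot be told apart. Across settings the list median ran from -0.43 to -0.20.

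No gene of the other differentiation lists passed the test between the arms, which does not show that they were equal. Oxidase and neutrophil receptor genes had a median of -0.10, with 2 of 16 below on all knockdown arrays (12.5%, under the 20.7% of all genes). CYBB rose with ATRA by 1.08 in control cells and by 1.48 in knockdown cells, and its difference after ATRA was -0.08 ± 0.22. Integrins had a median of -0.12. ITGAM rose by 1.73 and by 2.63 and had -0.21 ± 0.40 after ATRA, and ITGAX rose by 2.48 and by 2.96 and had -0.53 ± 0.36 (adjusted p = 0.346). TGM2, transglutaminase, a known ATRA target, rose by 3.98 and by 5.44 and read 13.62 to 13.85 on control and 13.49 to 13.60 on knockdown arrays. RARB, the direct retinoic acid receptor target, rose by 2.46 and by 2.72. These rises also depend on the untreated arrays, which differed within the control arm. For the oxidase list the untreated median deviation was 0.47 in scrambled replicate 2, beside -0.23 in scrambled replicate 1 and 0.035 in wild type. The test for a change of the knockdown difference called 0 genes, so the larger rises do not show stronger induction in knockdown cells. S100 and alarmin genes had a median of -0.27, with S100A11 at -0.26 ± 0.08 (adjusted p = 0.0732) and S100A9 at -0.35 ± 0.32 (0.476). Primary granule genes had a median of 0.12, with PRTN3 and MPO lowest in wild type, and myeloid transcription factors 0.04. GFI1, a repressor needed for granulocytes, had 0.54 ± 0.15 (adjusted p = 0.0712).

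Interferon response genes differed between arrays within an arm. Their median was -0.22 in the whole comparison, -0.69 for shRNA1 against scrambled (0 of 32 above 0) and 0.55 for shRNA2 against wild type (28 of 32 above 0). The median deviation was -0.15 in wild type, 0.69 and -0.02 in scrambled, -1.26 and 0.43 in shRNA1 and 0.36 in shRNA2 cells. The array of shRNA1 replicate 1 was thus far below its own duplicate. IFIT1, a sensor of viral RNA, read 6.99 and 10.54 in the shRNA1 duplicates, 10.23 in shRNA2, 9.39 in wild type and 11.04 and 9.85 in scrambled cells (-0.84 ± 0.73, adjusted p = 0.465). SAMD9L read 9.67 and 11.31 in the same duplicates and 11.32 to 11.84 on control arrays. Without shRNA1 replicate 1 the list median was 0.19, and 0 members were called under any setting. The cause was not tested.

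**Figure D4:**
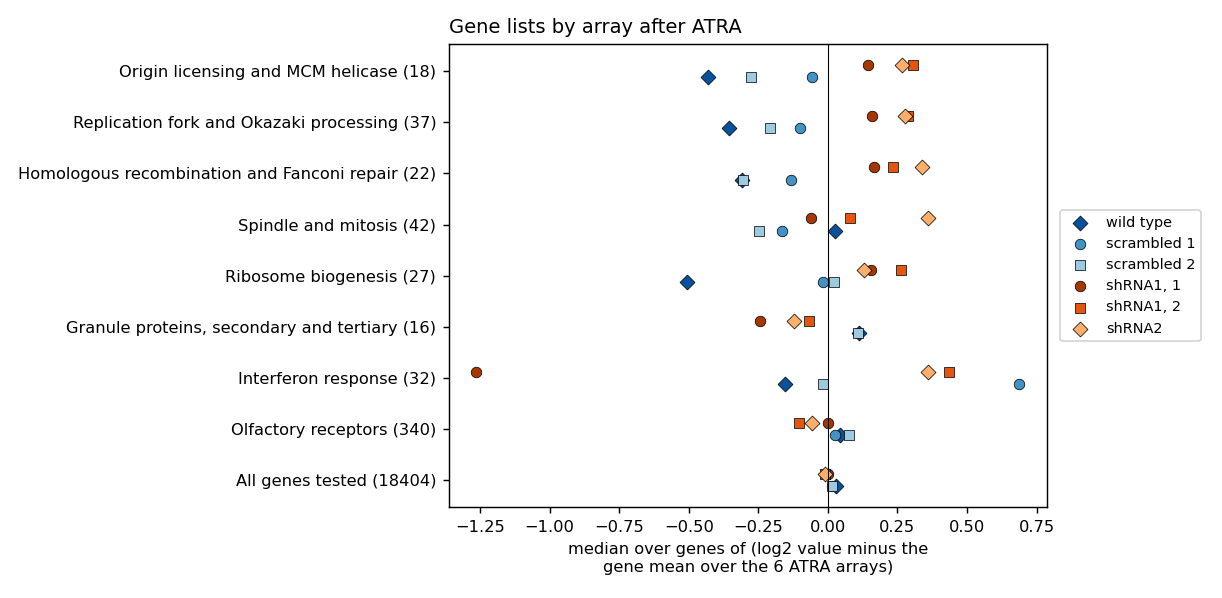
Median over the genes of a list of the log2 value minus the gene's mean over the 6 ATRA arrays (x axis), 1 point per array, for the named lists and all genes (y axis, list size in brackets). The arms separate in every row but spindle and mitosis and interferon response, so also in olfactory receptors and all genes. Wild type stands at -0.51 for ribosome biogenesis, and shRNA1 replicate 1 at -1.26 for the interferon list.

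Dim probe sets also had negative values, given here to be read beside the lists with a negative median. The 340 olfactory receptor genes, which serve smell neurons, had a median of -0.12, with 92 below on all knockdown arrays (27.1%, beside 20.7% of all genes) and 9 above. Their median before ATRA was -0.01. With quantile normalization it was -0.03, and the secondary granule median was then -0.24, the S100 median -0.28, the lymphoid median -0.09 and the monocyte median -0.17. Under the same scaling the median was -0.05 for progenitor markers and for integrins, -0.09 for erythroid and megakaryocyte markers and -0.08 for chemokines and cytokines. For coagulation genes it was -0.11, for oxidase genes -0.07, for interferon genes -0.285, for autophagy genes -0.08 and for cholesterol genes -0.12. In the values as deposited, markers of other blood cells had medians in the same range as the olfactory receptor genes. Lymphoid markers had a median of -0.18 (7 of 17 below on all knockdown arrays, 0 above), erythroid and megakaryocyte markers -0.15 (6 of 12 below), monocyte and macrophage markers -0.18 (5 of 18 below) and progenitor markers -0.14 (2 of 11 below). The kinase gene LCK (-0.44, adjusted p = 0.052) and the macrophage receptor MARCO (-0.39, 0.0539) were the nearest to the threshold among these markers. MARCO had risen with ATRA in control cells by 0.39, and its change in knockdown cells was -0.07. CD14, the monocyte coreceptor, had -0.42 ± 0.19 with overlapping arrays. Promyelocyte markers had a median of 0.17, with overlapping arrays for all 7 genes. Chemokines and cytokines had -0.14 (7 of 35 below, 20.0%, near the share of all genes), with OSM at -0.39 ± 0.10 (adjusted p = 0.063). The part of the dim-probe shift in these lists was not tested beyond the quantile values.

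Lists for apoptosis, autophagy and lysosome, retinoid metabolism, cholesterol control and housekeeping had medians between -0.07 and 0.03. Coagulation and fibrinolysis genes had -0.17, with 2 of 13 below on all knockdown arrays (15.4%, under the 20.7% of all genes). Of the 13 housekeeping genes 4 lay above (30.8%, beside 14.3% of all genes) and 3 below (23.1%) on all knockdown arrays. HPRT1, a purine salvage enzyme often used as a reference, read 8.84 to 9.23 on control and 9.48 to 9.55 on knockdown arrays (0.45 ± 0.11, adjusted p = 0.0578). The retinoic acid hydroxylase CYP26A1 had -0.38 ± 0.14 (adjusted p = 0.113), with -0.61 for shRNA1 and 0.09 for shRNA2.

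**Figure D5:**
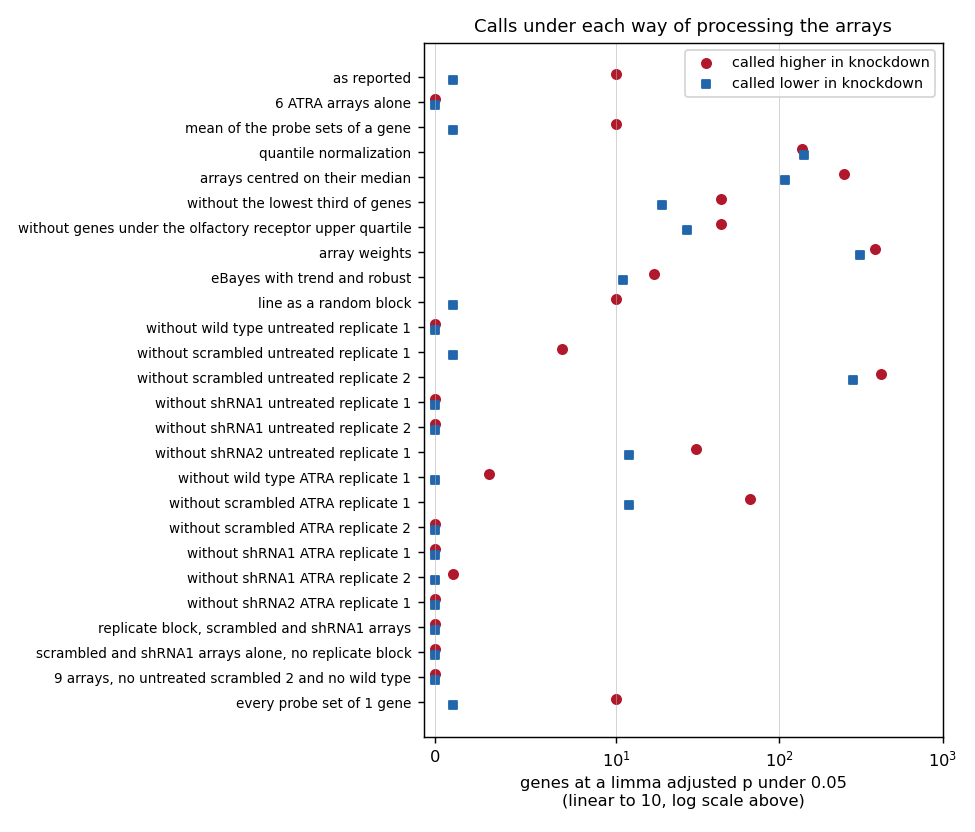
Number of genes at a limma adjusted p under 0.05 after ATRA (x axis, linear to 10 and log scale above), higher (red circles) and lower (blue squares) in knockdown cells, under the reported processing and each alternative (y axis). Counts run from 0 under several alternatives to 420 higher without untreated scrambled replicate 2 and 313 lower with array weights.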

How the data were processed

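Affymetrix ST arrays read biotin-labelled cDNA made from the total RNA of 12 NB4 samples, per the labels' protocols. The authors deposited log2 values, and the submitters' processing notes name RMA and limma with no version. The genome build is not given in the sources used here. The deposited values were used without further normalization. Of 32321 probe sets, 19158 had 1 gene in the platform annotation, 1388 had several and 11775 were not listed. For 637 genes with several probe sets, the brightest over all arrays was used.

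The 12 arrays were fitted as 4 arms of 3 with limma 3.58.1 (R 4.3.3; lmFit and eBayes, 8 residual degrees of freedom), and p-values were adjusted by Benjamini-Hochberg over all 18404 genes. The fit of shRNA1 against scrambled used the means of the 8 kinds of sample (4 residual degrees of freedom). An exact permutation test of 3 arrays against 3 cannot go below p = 0.1 and was not used. SEs are those of the fit. For arrays, their number limits the precision. The fit was tested on simulated data. Lists were summarised with Python 3.11.15 and pandas 2.3.3.

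The comparison, lists and alternatives were chosen with earlier results of these data known. Named genes were the called genes whose groups do not overlap, up to 4 members of each list with the smallest p, and the 5 smallest p-values in each direction for the change of the difference. Other list members, the promoters shown and the genes of the closing section were picked after their values were seen. The promoter rule asked for called members of the licensing, fork or deoxynucleotide lists with an E2F string. Of these lists 2 members were called (ORC6 and DNA2), and 0 had a window with a string to show. Alternatives varied the arrays in the fit, the probe set rule, the scaling, the filter on dim genes, the weights and the variance model.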

Additional observations from a re-analysis of the deposited data

Results flagged for a closer look

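Autophagy and lysosome genes (33 measured) had values of opposite sign in the 2 constructs. Taken as the difference between arrays' median deviations, the shRNA1 arrays lay below both scrambled arrays after ATRA by a mean of -0.0914 on the log2 scale, while shRNA2 lay above wild type by 0.03. The difference between constructs was not tested, and 0 genes of the list were called under any setting. The median of the gene-wise differences was -0.04 with shRNA1 and 0.00 with shRNA2, so both values are small beside those of the replication lists.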

How the results depend on the processing

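The count of genes higher in knockdown cells after ATRA was 10 with the means of a gene's probe sets, with every probe set tested and with line as a random block (correlation 0.035), as in the reported fit. It was 0 with the 6 ATRA arrays alone and with 9 arrays (no untreated scrambled replicate 2, no wild type). It was 138 with quantile normalization, 249 with arrays centred on their median, 44 without the dimmest genes (lowest tertile), 44 without genes under the upper quartile of olfactory receptor genes, 383 with array weights and 17 with a variance trend and robust eBayes. For lower genes the count was 1 in the first 3 cases, 0 in the next 2, and then 142, 108, 19, 27, 313 and 11. Leaving out 1 array gave 0 to 420 higher and 0 to 281 lower genes. Lower genes with shRNA1 than with scrambled numbered 1 with the 4 arrays of that contrast alone.

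The replicate block on the scrambled and shRNA1 arrays gave 0 higher and 0 lower genes, as did the same arrays without it. Same-numbered samples had deviations correlated at -0.336 after ATRA and -0.053 before, over 2 pairs each. These are too few to show a pairing or its absence, and the labels give none, so the numbers were not used to pair samples.

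Of 3551 values of the 150 named genes under alternatives, 3214 kept their direction and side of the threshold, 136 lost the call and 196 gained one. Most kept values belong to genes that were not called in the reported fit. All 136 lost calls fall on the 11 called genes, each of which was called under only 11 or 12 of 24 alternatives. Called genes changed sign in 0 cases and uncalled genes in 5. The causes were not tested. With 3 arrays an arm and no detection calls, differences of dim probe sets are the least certain.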

Other observations

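Several genes outside the lists had larger differences after ATRA than the called genes, with more spread between arrays. They are examples chosen after their values were seen, and none passed the test. MS4A3, a granulocyte progenitor gene, had 1.46 ± 0.35 (SE; limma adjusted p = 0.0568). It read 9.26 in wild type, 11.07 and 9.97 in scrambled, 11.32 and 11.78 in shRNA1 and 11.56 in shRNA2 cells, and the difference before ATRA was 0.81. The histone gene H2AC14 had 1.37 ± 0.31 (adjusted p = 0.0539), with 4.55 to 6.30 on control and 6.58 to 6.93 on knockdown arrays. Histone genes of a cluster are near-identical, so related transcripts cannot be told apart. The cell cycle genes CDCA7 (0.95 ± 0.21, adjusted p = 0.0539) and UNG, the uracil glycosylase (0.93 ± 0.26, 0.0715), lay above on all knockdown arrays, as did GRB10 (1.07 ± 0.33, 0.0804) and CALML4 (0.94 ± 0.20, 0.0539). HOXD13, a posterior homeobox gene, had 0.83 ± 0.18 (adjusted p = 0.0539) with 9.41 to 9.71 on control and 10.08 to 10.69 on knockdown arrays.

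In the other direction MPEG1, the macrophage perforin, read 9.10 in wild type, 9.97 and 9.57 in scrambled, 8.09 and 8.42 in shRNA1 and 8.82 in shRNA2 cells (-1.10 ± 0.24, adjusted p = 0.0539). It rose with ATRA by 2.45 in control and by 1.59 in knockdown cells. The kinesin gene KIF27 had -0.90 ± 0.23 (adjusted p = 0.0608) and LY96, the coreceptor of endotoxin sensing, -0.86 ± 0.31 (0.108). LY96 rose with ATRA by 3.17 in control and by 2.84 in knockdown cells.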
